A study of Mus musculus with 12 samples.

Results

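The Eif1ad paralogs described here are the 8 genes whose symbol starts with Eif1ad, other than Eif1ad3, in both deposited expression tables of a study of Eif1ad3 in mouse 2-cell embryos. They were picked by symbol, with earlier results of these data known, out of 17012 genes listed in both tables. They are Eif1ad and 7 numbered copies (Eif1ad2, Eif1ad4, Eif1ad6, Eif1ad7, Eif1ad8, Eif1ad16 and Eif1ad19). Eif1ad3, the ninth gene of this name, was the gene targeted and tagged in the study and is given only as a reference. The 4 groups used each held 2 libraries, replicates A and B. Control embryos of the CF1 stock, labelled WT, received the RNA-cutting enzyme RfxCas13d as in vitro transcribed mRNA without a guide, per the design text. Knockdown embryos, labelled Eif1ad3_KD, received the enzyme's mRNA together with guide RNA. The samples' protocol instead names antisense morpholino oligos delivered to oocytes with Cas13d protein, so the reagent is not settled by the labels, and its target sequence was not analysed here. The design text names as targets Eif1ad3 and what it calls its variance, without listing genes. For the pulldown, embryos labelled Eif1ad3_OE had been injected as zygotes with mRNA encoding Eif1ad3 with a His tag (200 ng/uL). Their lysates (200 cells a replicate) were taken through an RNA immunoprecipitation, either with an antibody to the tag (His) or with IgG as the negative control. Per the genotype label, the IgG embryos carried the tagged mRNA too.

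Eif1ad, known in humans as EIF1AD, encodes a small protein with the S1-like RNA-binding fold of translation initiation factor eIF1A, the factor that sits in the decoding site of the small ribosomal subunit during scanning. It is conserved among vertebrates. The numbered Eif1ad genes are mouse genes named for their resemblance to it, and genes of this group are known for expression around zygotic genome activation, when the 2-cell embryo starts to transcribe its own genome. Only 2-cell embryos were measured here, so stage specificity could not be examined.

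Levels are in CPM, the deposited unit, which gives a gene's reads relative to its library's total on 1 fixed scale. Library totals ran from 18173916 to 27902514 reads for knockdown and control embryos and from 4678563 to 8364126 reads for the pulldown. The 2-cell markers set out for this work were present, with summed levels of 4512 to 4863 CPM in controls and 3497 to 3746 CPM in knockdown embryos. Markers of cumulus and granulosa cells, which surround the egg, summed to 43.6 to 54.4 CPM over the same 4 libraries, with 8 of 16 markers listed. Most of these sums came from Amhr2 (13.5 to 28.5 CPM) and Gja1 (12.9 to 27.1 CPM), so they are not read as a measure of such cells. In the IgG libraries 12574 and 12217 of 19390 listed genes had 0 reads, against 5146 and 5313 in the His libraries. The labels do not say whether replicates came from separate collections, so p-values measure only the spread between these libraries. The sequences of the numbered copies were not analysed here, so how alike they are was not measured. Where copies are near-identical, reads could have been divided between them or lost, and how such reads were handled is not given in the sources used here, so the value of any 1 copy is uncertain. None of the 8 genes (0 of 8) had reads identical to another gene's in every library of the knockdown table, and 1 of 8 did in the pulldown table, Eif1ad2 with the gene EU599041. CPM is not divided by transcript length, so levels of different genes are not ranked.

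Knockdown against control asked how far the paralogs moved when Eif1ad3 was targeted. All 7 numbered copies had a lower mean in knockdown embryos, at 31.4% to 65.6% of the control mean, and Eif1ad stood at 86.5%. Over all genes tested, 48.7% had a negative log2 fold change. For each of the 7 copies both knockdown libraries lay below both controls, and for Eif1ad they did not. Both knockdown libraries lay below both controls for 18.4% of the 13332 genes tested. No paralog passed the test over all genes (0 of 8 at an adjusted p under 0.05 in limma), and neither did any other gene (percent called 0).

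Eif1ad, the conserved gene, had 75.7 CPM in control A and 137 CPM in control B (1892 and 3405 reads), against 71.4 CPM in knockdown A and 112 CPM in knockdown B (1991 and 2043 reads). The groups overlapped, and in each group replicate B was the higher library. Control embryos averaged 106 ± 43.2 CPM and knockdown embryos 91.9 ± 29.0 CPM (SD, n = 2 per group). The log2 fold change, here and below on the log2(CPM + 1) scale, was -0.18 (SE 0.43, adjusted p = 0.979 in limma). The sign was not fixed by these libraries: the value was 0.24 without control replicate B and 0.14 without knockdown replicate A.

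Eif1ad6 was at 240 and 248 CPM in controls A and B and at 64.5 and 88.9 CPM in knockdown A and B. The control libraries were nearly equal and both knockdown libraries were far below them. The log2 fold change was -1.68 (SE 0.34, limma adjusted p 0.859, unadjusted 0.00121), with 0.15% of tested genes having a more negative value. It was the gene with the third smallest p of all those tested.

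Eif1ad8 was at 578 and 461 CPM in controls A and B and at 230 and 120 CPM in knockdown A and B. Here knockdown B was the lower library. The log2 fold change was -1.63 (SE 0.39, limma adjusted p 0.859, unadjusted 0.00302).

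Eif1ad16 was at 207 and 148 CPM in controls and at 57.8 and 89.4 CPM in knockdown A and B. The log2 fold change was -1.27 (SE 0.38, limma adjusted p 0.859, unadjusted 0.0105). The groups were well apart, as for Eif1ad6 and Eif1ad8.

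Eif1ad7 was at 1122 and 783 CPM in controls A and B and at 288 and 635 CPM in knockdown A and B. Knockdown B was 2.21 times knockdown A and came close to control B. The log2 fold change was -1.13 (SE 0.43, limma adjusted p 0.859, unadjusted 0.0292). These 4 copies were the paralogs with an unadjusted p under 0.05, a level reached in the lower direction by 2.50% of the genes tested.

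The other 3 copies were separated by less. Eif1ad19 was at 125 and 53.2 CPM in controls A and B and at 52.9 and 28.7 CPM in knockdown A and B, so knockdown A and control B were almost equal. Eif1ad4 was at 244 and 234 CPM in controls and at 92.5 and 221 CPM in knockdown A and B, with knockdown B close to the controls. Eif1ad2 was at 74.1 and 55.0 CPM in controls and at 29.0 and 53.1 CPM in knockdown A and B. Their log2 fold changes were -1.05, -0.74 and -0.69, with SE of 0.52, 0.44 and 0.44.

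**Figure D1:**
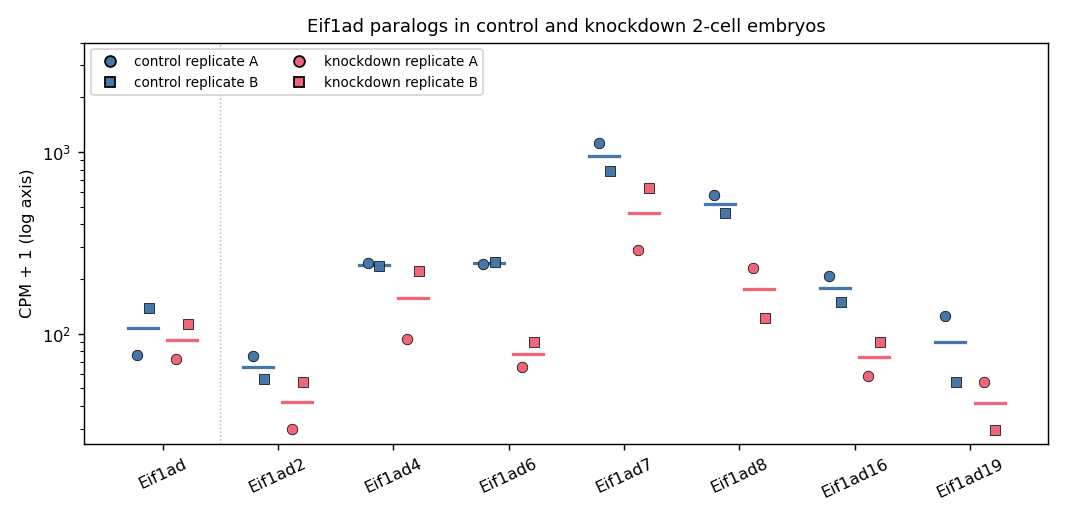
Level of each paralog (CPM + 1, log axis) in the 2 control and 2 knockdown libraries; circles are replicate A, squares replicate B and bars the group means. Both knockdown libraries lie below both controls for the 7 numbered copies, while Eif1ad, left of the dotted line, overlaps at 71.4 to 137 CPM.

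Over the 7 copies the median log2 fold change was -1.13, with a range from -1.68 to -0.69, and the median of all genes tested was 0.02. Eif1ad3, the targeted gene, had 839 and 663 CPM in controls and 277 and 377 CPM in knockdown embryos, or 43.5% of the control mean. Eif1ad6 (31.4%), Eif1ad8 (33.7%) and Eif1ad16 (41.4%) kept a smaller share of their control mean than Eif1ad3 did, and Eif1ad19 (45.8%), Eif1ad7 (48.4%), Eif1ad2 (63.6%) and Eif1ad4 (65.6%) a larger one. Relative to Eif1ad3 in the same library, the log2 ratio of Eif1ad6 was lower in both knockdown libraries than in both controls (difference -0.47). That of Eif1ad2 was higher in both (0.52), and those of the other 5 copies overlapped between groups. With 2 libraries a group, these differences could not be tested below an exact permutation p of 0.333.

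The copies did not all follow the same replicate. Between the knockdown libraries, 5 copies were higher in B, by 1.38 times (Eif1ad6) to 2.39 times (Eif1ad4), and 2 copies were lower in B, Eif1ad8 at 0.525 times and Eif1ad19 at 0.542 times the level in A. Between the controls, 6 of the 7 copies were lower in B than in A, and Eif1ad6 was nearly level at 1.03 times its level in A. Eif1ad was higher in B in both groups, by 1.81 times in controls and 1.58 times in knockdown embryos. The summed 2-cell markers given above were lower in both knockdown libraries as well, and their part in the lower copies was not tested. In such bulk samples fewer cells of a type and less RNA per cell cannot be told apart. The spread between knockdown libraries was wide for most genes: the median gene's SD was 0.49 log2 units in knockdown and 0.24 in control embryos.

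**Figure D2:**
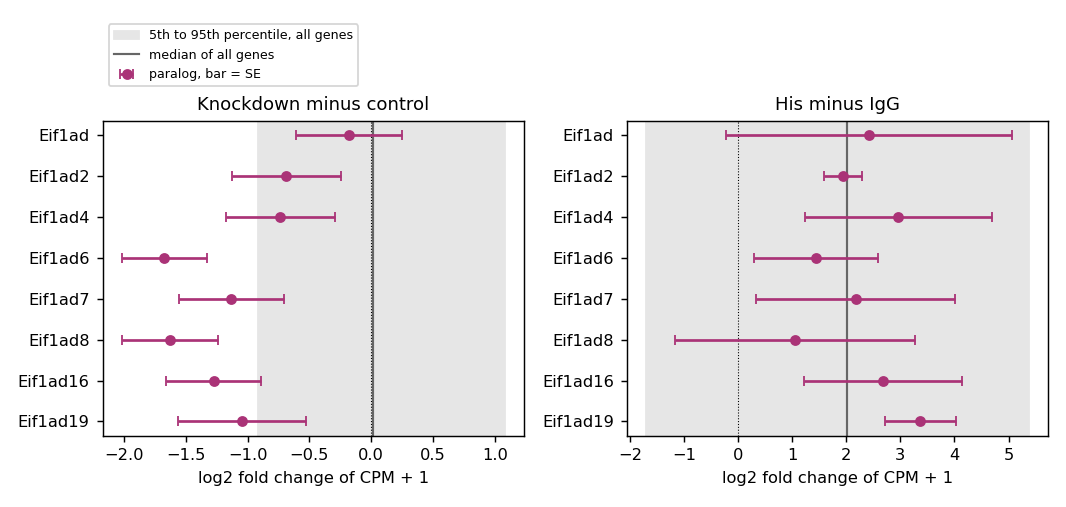
Log2 fold change of CPM + 1 with its SE for each paralog, knockdown minus control (left) and His minus IgG (right); the grey band spans the 5th to 95th percentile of all genes tested and the solid line their median. On the left the median is 0.02 and the copies reach from -1.68 to -0.69; on the right the median is 2.01 and the paralogs lie on both sides of it.

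Leaving out 1 knockdown library changed the calls: without knockdown replicate A 4 paralogs passed, as did 1894 of 12547 genes (15.1%), without knockdown replicate B 5 paralogs passed, as did 414 of 12810 genes (3.23%), and the lone library was then assumed to vary like the controls. Since knockdown libraries varied more than controls, no call is read from these fits. With 1 control library left out, the fits kept both knockdown libraries and called 0 paralogs and 0 genes in limma, with 125 genes at an unadjusted p under 0.05 without control replicate A and 163 without control replicate B.

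The conserved gene was then compared with the copies inside each library, where scaling cancels. The summed CPM of the 7 copies was 34.2 and 14.5 times that of Eif1ad in controls A and B, and 11.4 times in knockdown A. In knockdown B the copies summed to 1237 CPM against 112 CPM for Eif1ad, nearly the same ratio as in knockdown A. The size of this ratio depends on transcript lengths, which are not given in the sources used here, and only its change between libraries is read. Both knockdown libraries were below both controls, and the controls differed from each other by more than control B did from the knockdown libraries. Eif1ad gave 2.16% of the reads of the 9 Eif1ad genes in control A (95% exact Clopper-Pearson interval 2.06 to 2.26), 4.92% in control B (4.76 to 5.08), 6.14% in knockdown A (5.88 to 6.41) and 6.51% in knockdown B (6.24 to 6.79). These intervals cover counting error only, since the libraries were amplified by PCR without molecular identifiers.

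Copy by copy, the log2 ratio to Eif1ad was lower on average in knockdown embryos for all 7 copies, with differences from -1.49 (Eif1ad6) to -0.51 (Eif1ad2), and for 36.3% of the genes tested. Both knockdown libraries lay below both controls for 4 of the 7: Eif1ad6, Eif1ad7, Eif1ad8 and Eif1ad16. Over all genes tested, the ratio to Eif1ad separated in this way for 3.22%. For Eif1ad7 and Eif1ad8 the gap was narrow, with control B at 2.51 and 1.75 and the nearest knockdown library at 2.49 and 1.67. For Eif1ad6 the log2 ratio was 1.66 and 0.85 in controls A and B and -0.14 and -0.34 in knockdown A and B. For Eif1ad2 it was -0.03 and -1.30 in controls and -1.27 and -1.07 in knockdown embryos, so the groups overlapped. The exact two-sided permutation test gave p = 0.333 for the 4 separated pairs, the smallest this design allows, and an adjusted p of 0.583 over the 7 pairs. With quantile normalization Eif1ad8 overlapped between groups. This test therefore does not establish that the copies moved relative to Eif1ad.

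**Figure D3:**
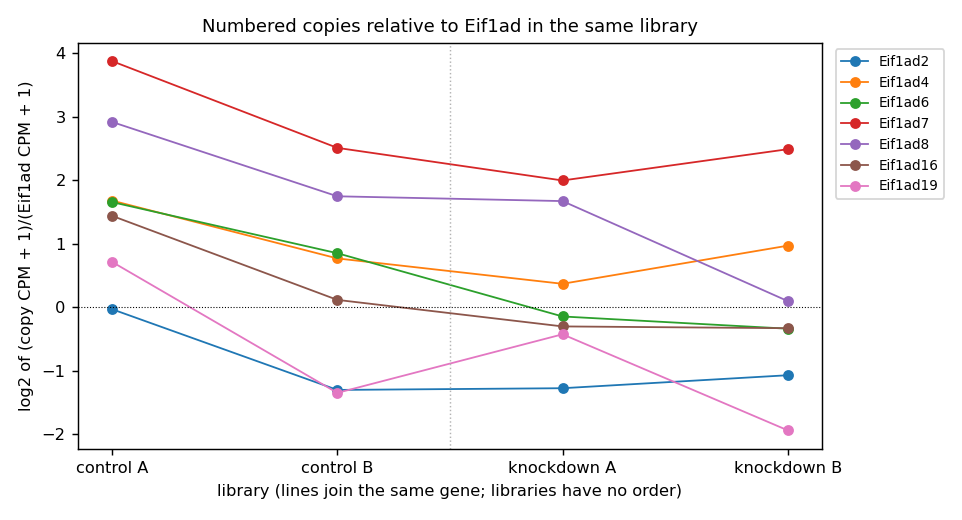
Log2 ratio of each numbered copy to Eif1ad (CPM + 1 of each) in the same library, with control libraries left and knockdown libraries right of the dotted line; lines only join the points of a gene. Control A stands highest for every copy, and control B lies only just above the higher knockdown library for Eif1ad7 (2.51 against 2.49) and Eif1ad8 (1.75 against 1.67).

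His against IgG asked whether RNA of the paralogs was recovered with His-tagged Eif1ad3 above the bead background. All 8 paralogs were detected in both His libraries, from 1.89 CPM (Eif1ad2) to 108 CPM (Eif1ad7), and the replicates differed by 1.04 to 2.15 times. The IgG replicates differed by 3.42 to 202 times for the 7 paralogs with any IgG read. Eif1ad2 and Eif1ad19 passed the test (2 of 8, higher in His), Eif1ad2 after meeting the filter only through its His libraries, and none passed in the other direction (0 of 8, limma, 0 lower at an unadjusted p under 0.05). Of the 11232 genes tested, 36.6% passed, 35.7% higher and 0.917% lower in His, and 2.49% were lower at an unadjusted p under 0.05. All 8 paralogs had a positive log2 fold change, as did 78.5% of genes. Both His libraries lay above both IgG libraries for 4 of 8 paralogs and for 54.1% of all genes.

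Eif1ad was at 89.4 and 99.5 CPM in His A and B (748 and 788 reads) against 172 CPM in IgG A and 0.855 CPM in IgG B (1022 and 4 reads). The His libraries were close to each other, and 1 IgG library was above both of them and the other near the floor of 3 reads. The log2 fold change was 2.41 (SE 2.65, adjusted p = 0.603 in limma). It was -0.86 without IgG replicate B and 5.68 without IgG replicate A. In these fits the lone IgG library was assumed to vary as little as the His pair, which the IgG pair did not, so no call is read from them.

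Eif1ad8 showed the opposite IgG pattern, at 3.38 and 178 CPM in IgG A and B (20 and 832 reads) against 55.6 and 57.8 CPM in His. Its log2 fold change of 1.04 (SE 2.22, adjusted p = 0.795, limma) was 3.72 without IgG replicate B and -1.63 without IgG replicate A. Eif1ad7 was at 108 and 92.7 CPM in His and at 4.05 and 98.7 CPM in IgG A and B. Eif1ad6 was at 23.0 and 15.5 CPM in His and at 2.19 and 16.0 CPM in IgG. For Eif1ad6, Eif1ad7 and Eif1ad8 IgG B reached or exceeded a His library, so the groups overlapped.

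Eif1ad4 was at 41.6 and 35.5 CPM in His and at 20.1 and 0.214 CPM in IgG A and B (119 reads and 1 read). Eif1ad16 was at 29.9 and 18.3 CPM in His and at 0.169 and 11.5 CPM in IgG A and B (1 read and 54 reads). Both were above both IgG libraries without passing (log2 fold changes 2.96 and 2.67, SE 1.73 and 1.46, adjusted p = 0.314 and 0.282 in limma). Of the 8 paralogs, 3 were higher in IgG A, 4 were higher in IgG B and 1 had no IgG read.

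Eif1ad19 was at 17.8 and 28.7 CPM in His (149 and 227 reads) and at 2.19 and 0.641 CPM in IgG (13 and 3 reads). Its groups were well apart. The log2 fold change was 3.37 (SE 0.66, adjusted p = 0.0329 in limma), and the call was lost with a replicate block (adjusted p = 0.0921), with edgeR on recovered reads (0.110), with a pseudocount of 0.1 (0.0773), with no filter (0.0850), with median rescaling (0.0747) and without either His replicate. Quantile normalization turned its sign (-0.06).

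Eif1ad2 was at 4.06 and 1.89 CPM in His (34 and 15 reads) and had 0 reads in both IgG libraries. It was at least 5.19-fold higher in His than the floor of 3 reads per IgG library, a mean of 0.574 CPM. Its adjusted p was 0.0282 in limma and 0.0547 in edgeR on recovered reads, and the range over 8 other settings was 0.0026 to 0.0996. Without IgG replicate A or B it was 0.0770 and 0.0752 in limma. It met the filter of 1 CPM in 2 libraries through the His group alone, so its call was partly set by the filter. With no filter its adjusted p was 0.0894 in limma, and at a mean of 5 CPM or without either His library it was not tested. With so few reads the difference rests on counts near the floor.

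**Figure D4:**
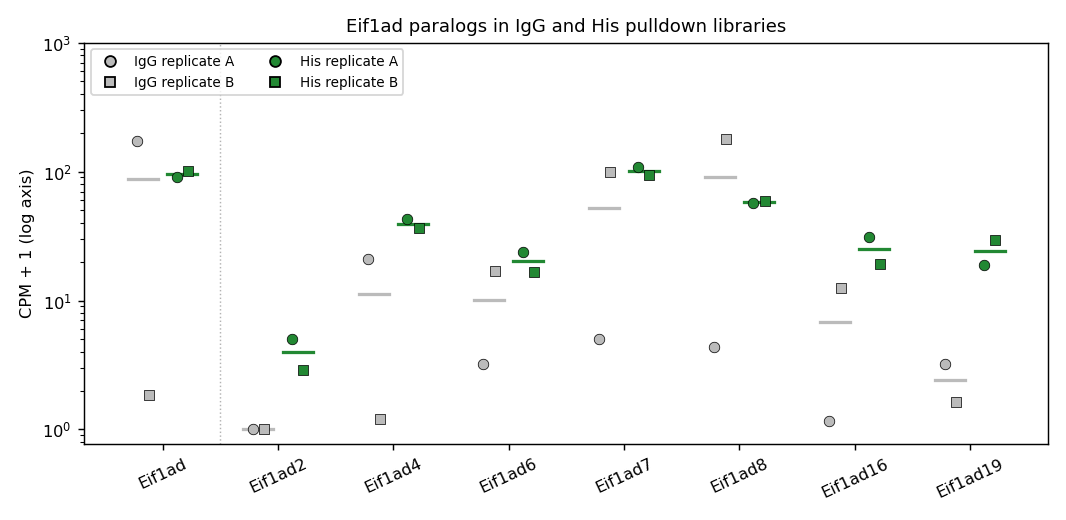
Level of each paralog (CPM + 1, log axis) in the 2 IgG and 2 His libraries; circles are replicate A, squares replicate B and bars the group means. The His replicates lie close together, while IgG A and IgG B differ by up to 202 times (Eif1ad).

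The IgG libraries also differed from His in other markers: sperm and testis RNA summed to 47.4 to 54.3 CPM in IgG and 1.08 to 7.20 CPM in His, and cumulus and granulosa markers to 0 to 6.92 CPM in IgG and 56.0 to 60.5 CPM in His. Of these lists 3 of 4 sperm and testis and 6 of 13 cumulus and granulosa genes were at 0 in all 4 libraries. The sperm and testis sums were those of 1 gene, Prm2. Amhr2 alone gave 48.1 and 39.7 CPM of the cumulus and granulosa sums in His A and B. The part of these markers in the paralogs' values was not tested. The median log2 fold change of the 7 copies was 2.17 and that of all genes 2.01, and 3 of the 7 copies lay below the all-gene median. The copies minus the all-gene median ranged from -0.96 (Eif1ad8) to 1.36 (Eif1ad19), and Eif1ad was at 0.40. Eif1ad3, whose mRNA was injected, was at 80.3 and 83.6 CPM in His and at 1.35 and 30.8 CPM in IgG. Within His A and B, the summed CPM of the 7 copies was 3.13 and 2.52 times that of Eif1ad. In IgG A and B this ratio was 0.186 and 357, on either side of both His libraries. Recovery relative to the starting RNA of these embryos was not analysed here, since the columns of unprecipitated RNA could not be assigned to labelled samples.

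Other factors of translation initiation were listed beside the paralogs: eIF1A and eIF1 themselves, the subunits of eIF2, eIF2B, eIF3 and eIF4, and partner factors. In knockdown embryos 22 of the 44 genes had a negative and 22 a positive log2 fold change, with a median of 0.00, and none passed (0 of 44, limma, 4 with an unadjusted p under 0.05). Those 4 were 3 lower and 1 higher. The shares of all genes at that p were 5.45% in either direction and 2.50% lower. Both knockdown libraries were below both controls for 13 of the 44 and above for 4, against 18.4% and 18.1% of all genes. Eif1a, an eIF1A gene, was at 51.2 and 99.5 CPM in controls A and B and at 82.4 and 187 CPM in knockdown A and B. Eif1ax, its X-linked counterpart, was at 116 and 143 CPM in controls and at 143 and 189 CPM in knockdown embryos. Neither of these eIF1A genes was below its controls in both knockdown libraries, unlike the numbered Eif1ad copies.

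The initiation factors with the smallest p in the lower direction were Eif3b, a scaffold subunit of eIF3 (75.0 to 27.7 CPM, mean of controls to mean of knockdown), Eif6, which keeps the large subunit from joining early (509 to 287 CPM), and Eif2b5, the catalytic subunit of the exchange factor eIF2B (40.2 to 19.4 CPM). In the higher direction they were Eif3e, another eIF3 subunit (88.5 to 200 CPM), Mcts1, a partner of Denr in reinitiation (10.1 to 23.3 CPM), and Eif1a. All 6 had an adjusted p of 0.859 in limma. Another 20 genes were listed for late assembly of the small subunit, where human EIF1AD has been found on precursor particles. Of these 13 had a negative log2 fold change, the median was -0.15 and none passed (0 of 20, limma, 2 lower with an unadjusted p under 0.05). Over all genes 48.7% had a negative change and 2.50% were lower at that p. Both knockdown libraries were below both controls for 7 of the 20 and above for 2, against 18.4% and 18.1% of all genes. Nob1, the endonuclease that matures 18S rRNA, went from 148 to 70.5 CPM, Rps26 from 392 to 216 CPM and Nop9 from 40.9 to 20.4 CPM. In the other direction the means were higher for Pno1, the partner of Nob1 (170 to 246 CPM), Riok1, a kinase of late precursors (142 to 219 CPM), and Ascc1 (15.5 to 19.3 CPM). For Pno1 and Riok1 this rested on 1 library. Pno1 was at 164 and 327 CPM in knockdown A and B, against 149 and 190 CPM in controls. Riok1 was at 332 and 106 CPM in knockdown A and B, and B was below both controls (149 and 136 CPM). The list also holds Ascc1, Trip4 and Nmd3, which are not dedicated to this step, and the ribosomal protein genes Rps3, Rps10 and Rps26. Each of these ribosomal protein genes had both knockdown libraries below both controls.

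Genes of other 2-cell families, such as Zscan4, Usp17l, Tdpoz, Obox and Fthl17, had a median log2 fold change of -0.35 in knockdown embryos, with 30 of 39 negative, 15 with both knockdown libraries below both controls, and none passing (0 of 39, limma, 6 lower with an unadjusted p under 0.05). Over all genes these shares were 48.7% negative, 18.4% with both libraries below and 2.50% lower at that p. Those with the smallest p were Fthl17f (74.0 to 12.2 CPM), Usp17lb (1519 to 637 CPM) and Tdpoz4 (296 to 128 CPM) among the lower and Usp17le (2.85 to 12.9 CPM), Usp17la (16.4 to 39.2 CPM) and Obox5 (3007 to 4822 CPM) among the higher genes. The 3 higher genes rested on knockdown A (22.5, 61.0 and 6637 CPM). In knockdown B (3.30, 17.3 and 3006 CPM) Usp17le was close to its controls, and Usp17la and Obox5 lay between theirs. The oocyte genes had a median of 0.00, with 13 of 26 negative, and none passed (0 of 26, limma, 1 with an unadjusted p under 0.05). This median covers knockdown libraries that stood apart: the list summed to 14808 CPM in 1 and 28032 CPM in the other, against 16067 and 19161 CPM in controls. H1f8 was at 1299 and 53.8 CPM in knockdown A and B, while Cnot6l was nearly level at 291 and 316 CPM. Bmp15, Oog1 and Btg4 had the smallest p in the higher direction (787 to 1537, 416 to 674 and 2959 to 4696 CPM). In the lower direction they were the egg coat genes Zp3, Zp1 and Zp2 (117 to 67.8, 49.7 to 28.7 and 164 to 116 CPM). For Btg4, Zp1 and Zp2 this rested on 1 library. Btg4 was at 6482 and 2911 CPM in knockdown A and B, against 2721 and 3198 CPM in controls. Zp1 and Zp2 in knockdown A (44.4 and 172 CPM) lay between their controls. The median of the numbered Eif1ad copies, -1.13, was below the medians of these lists, a description without a test. The 2-cell list pools families that differed. Fthl17b, Fthl17c, Fthl17e and Fthl17f had log2 fold changes of -1.65, -1.24, -1.64 and -2.39, past the copies' median. Fthl17d was at -0.39, and the SE of these genes ran from 0.53 to 0.96. Of these genes, only Fthl17e and Fthl17f had both knockdown libraries below both controls. A fall of this size was therefore not limited to the Eif1ad copies.

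Of the 4008 genes that rose in the pulldown over all tested, 3644 (90.9%) were under 1 CPM in both IgG libraries and 2693 had 0 reads there, so they met the filter through the His libraries alone. With no filter, or with edgeR on recovered reads, no gene passed (0 genes, with 5200 and 4592 at an unadjusted p under 0.05), and the calls of the following lists were all lost. In the reported fit, 8 of 40 initiation factors tested rose and 1 fell, with a median log2 fold change of 0.95 against 2.01 for all genes, of which 35.7% rose and 0.917% fell. Of the 8 that rose, 7 met the filter through His alone. The named ones, picked by fold change, are Eif2b1, Eif2d, Eif1ax, Eif2b2, Eif2s3x and Denr. They were at 247, 116, 92.7, 38.5, 9.18 and 4.77 CPM in His and at 0.422 CPM or less in IgG. Eif1, far above the floor in both groups, was at 2122 and 2244 CPM in His A and B and at 783 and 687 CPM in IgG A and B. Eif2b5 fell, from 484 CPM in IgG to 49.6 CPM in His. Eif1ax was at 94.0 and 91.4 CPM in His and at 0.844 and 0 CPM in IgG, and Eif1a at 40.3 and 39.8 CPM in His and 17.9 and 0 CPM in IgG A and B, without passing (adjusted p = 0.281, limma). Among the genes of the small-subunit list 7 of 20 rose and none fell (0 of 20, limma, 0 lower at an unadjusted p under 0.05), with a median of 1.22. All 7 met the filter through His alone. Csnk1d, Bysl, Ascc1, Nob1, Pno1 and Dimt1 were at 71.0, 47.5, 46.8, 48.5, 18.1 and 11.5 CPM in His and at 0.298 CPM or less in IgG. They were picked by fold change, but with IgG so near 0 the order of their folds is not read. Those with the smallest p in the other direction were Trip4, Rps10 and Riok1, at 216, 102 and 166 CPM in IgG and 30.6, 21.5 and 56.9 CPM in His, without passing.

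Of the 2-cell family genes 13 of 34 rose and none fell (0 of 34, limma, 0 lower at an unadjusted p under 0.05), with a median of 3.07. Of the 13, 10 met the filter through His alone. Tcstv1, Usp17lb, Pramel6, Usp17le and Usp17lc were at 643, 146, 47.6, 42.6 and 30.7 CPM in His and at 3.20 CPM or less in IgG. Of the oocyte genes 8 of 26 rose, with a median of 1.93, among them Zp1, Kit, Patl2, Oog1, H1f8 and Dppa3. Of the 8, 2 met the filter through His alone. Ooep fell from 996 CPM in IgG to 615 CPM in His. Of all genes, 35.7% rose.

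Genes with the most similar profile across libraries were found by the root mean square difference of log2(CPM + 1), each gene centred on its own mean. In the 4 libraries of the knockdown table, the genes closest to Eif1ad included Tasor2 and Sprtn, a DNA-protein crosslink protease, at differences of 0.062 and 0.070, where the median of 7413 genes was 0.55. Tasor2 was at 143 and 245 CPM in controls A and B and at 142 and 202 CPM in knockdown A and B. The mean of the 7 copies was closest to Tekt2, a tektin, Nelfb, a subunit of the negative elongation factor, and Zfp791, a zinc finger gene, at 0.050, 0.071 and 0.093 with a median of 0.73. Zfp791 was at 389 and 306 CPM in controls and at 151 and 165 CPM in knockdown embryos.

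In the 4 pulldown libraries Eif1ad was closest to Dcbld1, Chaf1a, a subunit of chromatin assembly factor 1, and Dap3, a mitochondrial ribosomal protein gene, at 0.075, 0.093 and 0.13 with a median of 2.83 over 7139 genes. Chaf1a shared its uneven IgG values, at 188 and 1.28 CPM in IgG A and B. The copies were closest to Dlgap4 at 0.082 and to Ppp1cc and Ppp1ccb, 2 symbols listed with identical values, at 0.13. Among the paralogs themselves, the closest pairs in the knockdown table were Eif1ad2 with Eif1ad4 (0.19) and Eif1ad7 with Eif1ad16 (0.20), and Eif1ad8 and Eif1ad19 were closer to each other (0.43) than to Eif1ad7 (0.77 and 0.75). In the pulldown table Eif1ad7 was again near Eif1ad16 (0.43), and Eif1ad was nearest to Eif1ad4 (0.91).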

How the data were processed

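Expression was measured by RNA-seq (Smart-seq2 kit and Nextera XT, 150 bp paired-end reads, per the labels' protocols). The deposited values are CPM, made by the authors and listed per gene. The submitters' processing notes list Trim Galore 0.6.7, FastQC, HISAT2 2.2.1, featureCounts 2.0.1, edgeR and the build GRCm39. The annotation and the treatment of reads matching several genes are not given in the sources used here. All values (100%, tolerance 0.02 reads) were whole multiples of 1 read, so reads were recovered. Of 12 samples 8 were used. The names of 4 further value columns did not decide between the input and total RNA samples, so these columns and the 6 planned results that need them were not used. Genes with at least 1 CPM in 2 libraries were fitted within a table by limma 3.58.1 (R 4.3.3, log2(CPM + 1), mean-variance trend, two-sided, Benjamini-Hochberg over all genes, threshold 0.05). In simulated data all genes shared 1 edgeR dispersion, estimated from the real libraries (0.27 for the knockdown, 1.55 for the pulldown). There the fit passed none of the genes changed by 1 or 2 log2 units. The real spread differed between genes and groups, so the simulation does not measure the power of the fit here. A gene that did not pass is still not shown to be unchanged. Alternatives were pseudocounts, filters, scalings, a replicate block, leaving out libraries, and edgeR 4.0.16 and DESeq2 1.42.0 on recovered reads. The paralogs, the lists and the tests were chosen with earlier results of these data known. Named genes are the paralogs, the listed genes that passed (up to 6 per direction, by fold change) or else the 3 with the smallest p, and the 3 most alike genes with a mean of at least 10 CPM. Some genes were named outside this rule. A few genes this rule names are not reported here. Of the 8 symbols 1 (Eif1ad, ENSMUSG00000024841) was found in the reference gene tables, whose build differs, so no coordinates are given. A floor is 3 reads.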

Additional observations from a re-analysis of the deposited data

How the results depend on the processing

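In knockdown against control embryos the 7 copies kept a negative change in all 9 other settings and in all 4 fits that left out a library, and no paralog passed in those 9 settings. The genes called went from 0 to 2 with a replicate block and 15 with DESeq2, and to between 0 and 1894 when a library was left out. The paralogs called then ranged from 0 to 5, the median of the copies from -1.51 to -0.87, and Eif1ad from -0.60 to 0.24. With the replicate block the smallest adjusted p of a paralog was 0.184 in limma, and with DESeq2 on recovered reads it was 0.0806. Both were for Eif1ad8. Same-letter deviations correlated at 0.146 in this comparison and at -0.014 in the pulldown, and the letters are not stated to mark shared handling.

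In His against IgG, the 4111 genes called became 0 with no filter (5200 unadjusted, smallest adjusted p 0.0505), 2356 at a mean of 5 CPM, 1944 with quantile normalization, 0 with edgeR (4592 unadjusted, 0.0547) and 6 to 7679 without a library. The 2 paralogs called became 1 with either pseudocount (0.1 or 5), a mean of 5 CPM, median rescaling or the replicate block, 0 with no filter, quantile normalization or edgeR, and 0 to 6 without a library. The median of the copies, 2.17, was 3.73 with the pseudocount of 0.1, 0.040 with quantile normalization, 1.39 with DESeq2 and 0.96 to 2.89 without a library, while that of all genes moved from 2.01 to 3.66, 0.82 and 1.30 in the first 3 of these settings, 0.94 with a pseudocount of 5 and 1.79 with median rescaling. Signs turned for Eif1ad6 (-0.96), Eif1ad8 (-0.13) and Eif1ad19 (-0.062) with quantile normalization, and for Eif1ad (-0.12 and -0.42) and Eif1ad8 (-0.58 and -0.79) with edgeR and DESeq2. Without a library Eif1ad ranged from -0.86 to 5.68 and Eif1ad8 from -1.63 to 3.72. For these changes the cause was not tested. Depth limits Eif1ad2 most, with 15 to 34 reads in His.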
